A study of Rattus norvegicus with 50 samples.

Results

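The panel examined here held 37 genes of the cell cycle and of DNA repair, chosen by name: genes that license and copy DNA, supply nucleotides, repair DNA breaks, and drive cells into and through mitosis. A gene was taken as measured where a probe set of the Affymetrix Rat Gene 2.0 ST array carried its symbol alone, which gave 30 of the 37 genes, among 14557 genes with such a probe set. The other 7 were Mcm5, Birc5, Cenpe, Nusap1, Top2a, Mki67 and Ube2c, and they are not analysed here. Mcm3 and Ccnb2 each had 2 probe sets, and the one with the higher mean signal stood for the gene. Rrm2 has in addition a probe set that it shares with the near-identical Rrm2l1, which was not used.

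The arrays measured whole blood of male Wistar rats, drawn from a tail vein on days 0, 2, 14, 21 and 28. The labels give 6 rats with an injection of monoiodoacetate (MIA) after the day 0 sample and 4 naive rats, which were intact and received no injection, so that injection, anaesthesia and MIA cannot be told apart. MIA blocks glycolysis in cartilage cells, and injected into the knee joint it gives a chemical model of osteoarthritis, in which cartilage is lost without the slow course of the human disease. The same rats were bled at each day, a replicate number stands for 1 rat of its treatment, and all comparisons with day 0 share the day 0 arrays.

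Dividing cells pass through a fixed order of steps. Before S phase the MCM helicase is loaded on DNA, Pcna then clamps the polymerases to the template, and ribonucleotide reductase and thymidylate synthase supply the nucleotides. Cyclins A and B with the kinase Cdk1 start mitosis, the Aurora and Polo kinases build the spindle, the checkpoint kinases at the kinetochore wait for attachment, and Cdc20 with the anaphase-promoting complex ends mitosis. Most white cells of normal blood do not divide. Transcripts of these genes in blood can come from activated lymphocytes, plasmablasts, early cells released from the marrow, or young red cells that still carry RNA from their last divisions.

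Values were log2 signals per probe set. In 49 of the 50 arrays the standard deviation of the signals lay between 1.80 and 1.99 and the mean correlation with the other arrays between 0.920 and 0.954. The standard deviation ran from 1.85 to 1.93 at day 0 and from 1.90 to 1.99 at day 28. The array of MIA day 21 replicate 4 had a standard deviation of 1.00 and a mean correlation of 0.243, and it was left out, so that 5 MIA rats remained at day 21. The mean signals of MIA day 14 replicate 2 and naive day 21 replicate 4 were 2.72 and 2.74, against 2.85 to 2.97 in the other 47 arrays. Melk and Ttk had a mean signal below the median over all probe sets, 2.26, and the other 28 genes lay above it. A level here is not comparable between genes, since each probe set binds with its own strength, and precision was limited by the number of arrays. In whole blood, fewer cells of a type and less RNA per cell cannot be told apart.

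The panel was first compared between day 0 and day 28 over both treatments, as the mean of the MIA and the naive change with equal weight, here called the change in all 10 rats. Pcna and Mcm7 rose and Cdc20, Ccnb2 and Melk fell, and the other 25 genes did not pass the test (limma, Benjamini-Hochberg adjusted over 36685 probe sets, called under 0.05). Rats were not paired with their own day 0 in this test, so its standard errors include the spread between rats. The 5 genes were 16.7% of the 30, and 12% of all probe sets were called in the same comparison, 7.37% higher and 4.58% lower. At an unadjusted p under 0.05 the shares were 33.3% of the genes and 26.5% of all probe sets. The median change of the 30 genes was −0.18 on the log2 scale against −0.02 over all probe sets, with 9 genes above 0 and 21 below. All probe sets include 21032 without a symbol and the dim ones, whereas 28 of the 30 genes lay above the median signal. Every share over all probe sets given below thus rests on an unlike set. With dim probe sets left out, the median over the rest was 0.116. In MIA rats 2055 of these fewer probe sets were then called, in place of 1564 of all. The share called among the brighter ones was thus higher than the 4.26% over all probe sets. With the array of MIA day 21 replicate 4 put back, Cdc20 alone of the 5 kept its call.

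Genes of the same role mostly lay on the same side of 0. All 6 measured genes of replication licensing and the fork lay above 0 by this measure, from 0.08 for Mcm2 to 0.46 for Pcna, and 2 of them passed. All 6 are among the brighter probe sets, over which the median change was 0.116, and Mcm2 and Mcm6 lay below that. In naive rats 5 of the 6 lay above 0. The 6 genes of the group of cyclins, Cdk1 and their regulators lay below 0, from −0.43 for Ccnb2 to −0.06 for Foxm1, and 2 passed. The 4 genes of the kinetochore and its checkpoint lay between −0.51 for Bub1 and −0.13 for Bub1b, and none passed, with adjusted p from 0.0912 for Cenpf to 0.40 for Bub1b. The 3 genes of nucleotide supply also lay below 0, at −0.61 for Tyms, −0.17 for Rrm1 and −0.04 for Rrm2, and none passed. The Aurora kinases Aurka and Aurkb had changes of −0.34 and −0.19 and Plk1, the Polo kinase, 0.03. Of the spindle genes, Tpx2 stood at −0.47, Kif23 at −0.18, Kif11 at −0.05 and Kif20a at 0.13. The break repair genes Bard1, Brca1 and Brca2 had −0.24, 0.00 and 0.14.

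**Figure D1:**
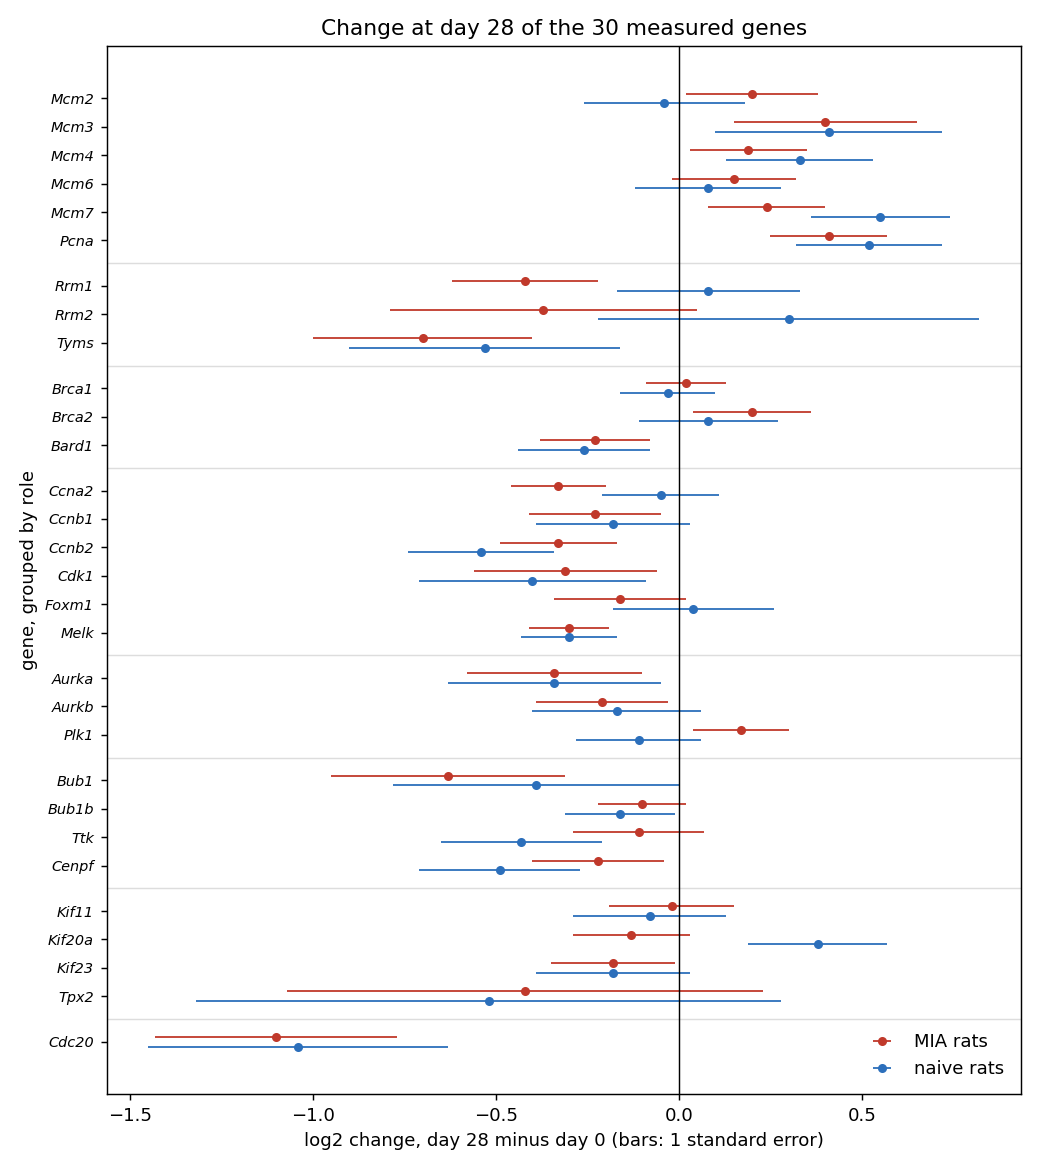
Change of the log2 signal from day 0 to day 28 (x axis, with bars of 1 standard error from the fit) for the 30 measured genes (y axis, grouped by role) in 6 MIA and 4 naive rats. The 6 genes at the top, of replication licensing and the fork, lie above 0 in MIA rats, and Cdc20 at the bottom has the lowest value in both treatments, −1.10 and −1.04.

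Cdc20, the activator of the anaphase-promoting complex, had the lowest change of the 30 genes at day 28 in both treatments. Its level (probe set 17809960) in the MIA rats ran from 4.40 to 5.40 with a median of 4.64 at day 0, and from 3.24 to 4.14 with a median of 3.80 at day 28. The 2 ranges did not overlap, and the level was lower at day 28 in 6 of 6 MIA rats. In naive replicates 1 to 4 the day 0 levels were 4.53, 5.94, 3.38 and 5.02, and at day 28 they were 3.51, 4.33, 3.32 and 3.55. All 4 naive rats were lower, but their ranges overlapped, and replicate 3 was already low at day 0.

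The change of Cdc20 in MIA rats was −1.10 ± 0.33 (SE, n = 6, adjusted p = 0.0499), and it was the single gene of the panel called in that comparison, 3.33% of the genes, where 4.26% of all probe sets were called, 1.87% lower and 2.39% higher. That call sat at the threshold, and it was lost when any 1 of the 6 MIA rats or naive replicate 1 was left out, with all 50 arrays, and under a trended and robust variance prior. In naive rats the change was −1.04 ± 0.41 (SE, n = 4, adjusted p = 0.196), and 2.04% of all probe sets and 0 of the 30 genes were called there. In all 10 rats it was −1.07 ± 0.26 (SE, adjusted p = 0.00559), lower in 10 of 10 rats. This was the one call of the panel that held under every alternative run, with adjusted p from 0.00123 to 0.034.

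The fall of Cdc20 was present by day 21. The 5 MIA rats then had 4.06, 3.84, 3.94, 3.25 and 4.01 in replicates 1, 2, 3, 5 and 6, and the naive rats 4.12, 5.02, 3.28 and 2.95. All 5 MIA levels lay below the lowest MIA level of day 0, 4.40. The change in all rats was −0.95 ± 0.27 (SE, n = 9, adjusted p = 0.0304), lower in 9 of 9 rats, and Cdc20 was again the single gene of the panel called, where 5.03% of all probe sets were called, 3.51% lower and 1.52% higher. Taken by treatment the day 21 value did not pass, with −1.03 ± 0.35 in MIA rats (adjusted p = 0.16) and −0.87 ± 0.41 in naive rats (adjusted p = 0.364), where 0.665% and 0.333% of all probe sets were called. The naive value at day 21 was −0.47 without naive replicate 4. Without the arrays of low mean signal the change in all rats at day 21 no longer passed, and the same held without MIA replicate 1, 3, 4 or 5 or naive replicate 1 or 4.

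At day 14 the MIA levels of Cdc20 spread from 3.29 to 5.12 with a median of 4.28, and the naive levels were 4.86, 5.35, 4.03 and 4.13. The lowest MIA value was that of replicate 2, on the array of low mean signal. No gene of the panel was called at day 14, where 0% of all probe sets were called in MIA rats, 0.00273% in naive rats and 0.0164% in all rats. Between day 14 and day 28 Cdc20 changed by −0.72 ± 0.26 in all rats (adjusted p = 0.185), and 0 of the 30 genes and 0.935% of all probe sets were called. Between day 2 and day 14, where 0.0409% of all probe sets were called, no gene of the panel passed, and the smallest unadjusted p was that of Melk, at a change of −0.27 ± 0.08 (adjusted p = 0.247).

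**Figure D2:**
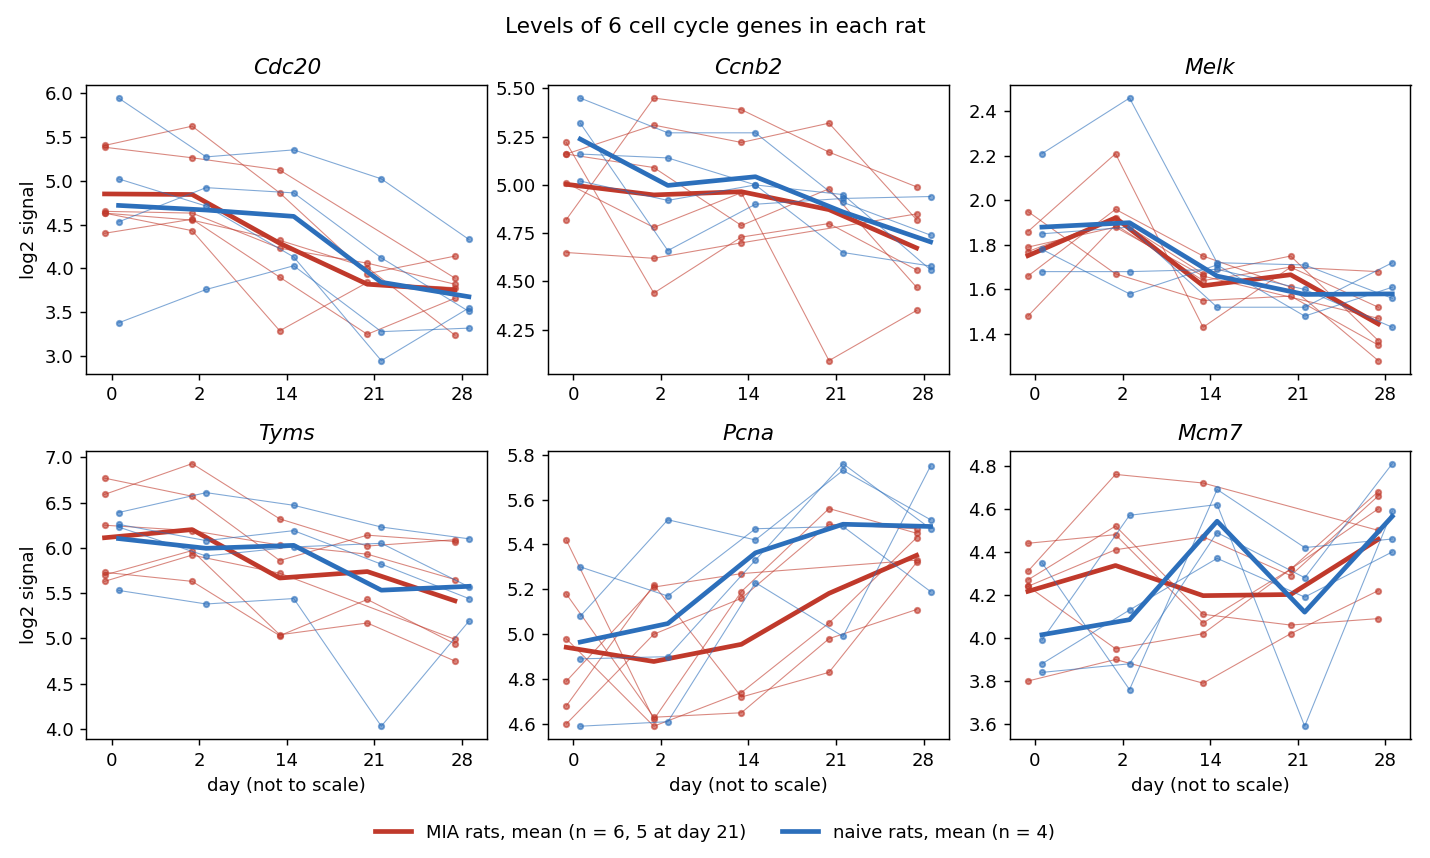
Log2 signal (y axis) of Cdc20, Ccnb2, Melk, Tyms, Pcna and Mcm7 in each rat by day (x axis, not to scale), thin lines for single rats and thick lines for the mean of 6 MIA rats (5 at day 21) and of 4 naive rats. The MIA levels of Cdc20 lie between 4.40 and 5.40 at day 0 and between 3.24 and 4.14 at day 28, and those of Pcna between 4.60 and 5.42 and between 5.11 and 5.47.

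Ccnb2 encodes cyclin B2, a partner of Cdk1 in mitosis. Its levels (probe set 17853791) in MIA rats ran from 4.65 to 5.22 with a median of 5.08 at day 0, and from 4.35 to 4.99 with a median of 4.69 at day 28. Naive replicates 1 to 4 had 5.45, 5.16, 5.32 and 5.02 at day 0 and 4.74, 4.58, 4.94 and 4.56 at day 28. The naive ranges did not overlap, whereas the MIA ranges did, and MIA replicates 3 and 4 were higher at day 28. It shifted by −0.33 ± 0.16 in MIA rats (adjusted p = 0.238), −0.54 ± 0.20 in naive rats (adjusted p = 0.171) and −0.43 ± 0.13 in all rats (SE, adjusted p = 0.0236), lower in 8 of 10 rats. The second Ccnb2 probe set had a change of −0.41 ± 0.15 in all rats and did not pass (adjusted p = 0.0747). The call for the first was lost without MIA replicate 2 or naive replicate 1, 2 or 4.

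Melk is a kinase that rises with mitosis in dividing cells. In MIA rats it had levels (probe set 17798407) from 1.48 to 1.95 with a median of 1.78 at day 0 and from 1.28 to 1.68 with a median of 1.42 at day 28. The naive rats had 2.21, 1.68, 1.85 and 1.78, and at day 28 they had 1.56, 1.43, 1.72 and 1.61. Both pairs of ranges overlapped, and the signal was among the dim ones of the array. The change was −0.30 in each treatment, with a standard error of 0.11 in MIA rats (adjusted p = 0.0866) and 0.13 in naive rats (adjusted p = 0.254). In all rats it was −0.30 ± 0.08 (SE, adjusted p = 0.0141), lower in 9 of 10 rats. The call was lost after a further quantile normalization, and the naive value was −0.19 without naive replicate 1.

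Ccna2, cyclin A2, was among the 5 genes with the smallest p at MIA day 28. It ran from 2.42 to 3.06 with a median of 2.90 at day 0 and from 2.28 to 2.62 with a median of 2.50 at day 28, and the ranges overlapped. The change was −0.33 ± 0.13 in MIA rats (limma adjusted p = 0.127), lower in 5 of 6 rats, and −0.05 ± 0.16 in naive rats (adjusted p = 0.934).

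Among the genes that rose, Pcna (probe set 17777527), the sliding clamp of the DNA polymerases, ran in MIA rats from 4.60 to 5.42 with a median of 4.88 at day 0 and from 5.11 to 5.47 with a median of 5.38 at day 28. The naive levels were 4.89, 5.30, 5.08 and 4.59 at day 0 and 5.47, 5.19, 5.51 and 5.75 at day 28. The ranges overlapped in both treatments, and MIA replicate 5 and naive replicate 2 were lower at day 28 than at day 0. It shifted by 0.41 ± 0.16 in MIA rats (adjusted p = 0.128), 0.52 ± 0.20 in naive rats (adjusted p = 0.184) and 0.46 ± 0.13 in all rats (SE, adjusted p = 0.0134), higher in 8 of 10 rats. The call was lost without naive replicate 4, where the naive value was 0.30, or when quantile normalization was repeated, where the MIA value was 0.23.

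Mcm7 (probe set 17676520), a subunit of the MCM helicase, ran in MIA rats from 3.80 to 4.44 with a median of 4.25 at day 0 and from 4.09 to 4.68 with a median of 4.55 at day 28. In naive rats it had 3.88, 3.84, 4.35 and 3.99 at day 0 and 4.40, 4.81, 4.46 and 4.59 at day 28. All 4 naive levels of day 28 lay above those of day 0, whereas the MIA ranges overlapped. The change was 0.24 ± 0.16 in MIA rats (adjusted p = 0.379), 0.55 ± 0.19 in naive rats (adjusted p = 0.131) and 0.40 ± 0.12 in all rats (SE, adjusted p = 0.03), higher in 9 of 10 rats. It no longer passed without MIA replicate 1 or 3 or naive replicate 1, 2 or 4, or after a further quantile normalization, which gave 0.24 in all rats. Its course was not even, since in naive rats the levels were 4.37, 4.49, 4.69 and 4.62 at day 14 but 4.19, 4.28, 4.42 and 3.59 at day 21, where the lowest value came from the array of low mean signal.

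The other MCM subunits did not pass. Mcm3 and Mcm4 had changes of 0.40 ± 0.20 and 0.26 ± 0.13 in all rats (adjusted p = 0.189 and 0.195), each higher in 9 of 10 rats, and Mcm6 and Mcm2 had 0.11 and 0.08, each higher in 6 of 10 rats. The second Mcm3 probe set stood at 0.17 ± 0.13, less than the first.

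Tyms, thymidylate synthase, was lower in 10 of 10 rats but did not pass. Its MIA levels ran from 5.63 to 6.77 with a median of 5.99 at day 0 and from 4.75 to 6.09 with a median of 5.32 at day 28. The naive levels were 6.39, 6.23, 6.26 and 5.53 at day 0 and 6.10, 5.57, 5.44 and 5.19 at day 28. Each rat was lower than at its own day 0, but rats differed so much that the ranges overlapped. The change was −0.70 ± 0.30 in MIA rats (adjusted p = 0.17) and −0.61 ± 0.24 in all rats (SE, adjusted p = 0.0881). Bub1, a checkpoint kinase, was likewise lower in 10 of 10 rats, at −0.51 ± 0.25 (SE, adjusted p = 0.187). The fit did not pair a rat with its own day 0, so both standard errors include the spread between rats. Within rats the change at day 28 ran from −0.96 to −0.29 for Tyms and from −1.02 to −0.09 for Bub1.

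To show what letters stand before the genes that moved apart, the 250 bases upstream of an annotated start are given for the fallen Cdc20 and Ccnb2 and the risen Pcna and Mcm7, as RefSeq has them on rat build GRCr8. Capitals mark matches, on either strand, to the CHR element (TTTGAA or TTCGAA) known from mitotic genes, to the CCAAT box bound by NF-Y, and to E2F sites (TTTCCCGC, TTTGGCGC, TTTCGCGC or TTTGCCGC) known from S phase genes. The stretches lie on the minus strand at chr5:137255800-137256049, chr8:79981659-79981908, chr3:139955821-139956070 and chr12:22163179-22163428, in the order printed. The genes span chr5:137251596-137255799, chr8:79968459-79981717, chr3:139951948-139955820 and chr12:22155921-22163320, so that Ccnb2 and Mcm7 have another annotated start further upstream, inside the stretch shown.
Cdc20: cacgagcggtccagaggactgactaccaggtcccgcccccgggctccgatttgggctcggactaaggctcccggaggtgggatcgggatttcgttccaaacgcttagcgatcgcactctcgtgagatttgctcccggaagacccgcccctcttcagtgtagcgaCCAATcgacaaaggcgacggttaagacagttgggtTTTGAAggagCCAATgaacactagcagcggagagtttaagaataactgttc
Ccnb2: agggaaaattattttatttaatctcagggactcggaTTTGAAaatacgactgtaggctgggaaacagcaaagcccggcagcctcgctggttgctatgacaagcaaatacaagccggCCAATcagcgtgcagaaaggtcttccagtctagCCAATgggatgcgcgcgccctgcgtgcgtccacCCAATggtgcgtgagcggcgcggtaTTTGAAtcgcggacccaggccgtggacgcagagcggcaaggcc
Pcna: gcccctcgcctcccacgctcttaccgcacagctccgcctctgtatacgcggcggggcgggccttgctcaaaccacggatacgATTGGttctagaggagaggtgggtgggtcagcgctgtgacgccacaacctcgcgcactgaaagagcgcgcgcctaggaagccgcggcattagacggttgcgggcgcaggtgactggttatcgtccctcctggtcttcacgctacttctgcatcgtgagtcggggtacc
Mcm7: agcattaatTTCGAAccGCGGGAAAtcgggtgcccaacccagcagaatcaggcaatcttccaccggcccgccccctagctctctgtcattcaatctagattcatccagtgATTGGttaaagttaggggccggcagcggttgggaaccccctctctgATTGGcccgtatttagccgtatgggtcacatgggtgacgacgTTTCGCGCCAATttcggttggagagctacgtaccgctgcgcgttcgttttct

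Cdc20 has a CHR match 51 bases before the start between CCAAT boxes at 86 and 41 bases. Ccnb2 has CCAAT boxes at 134, 101 and 68 bases and a CHR match at 43 bases, with a further CHR match at 214. Pcna holds a single CCAAT box at 168 bases and no match to the other motifs. Melk, the other gene that fell, has no match to any of these motifs in its stretch, which is not printed. Mcm7 holds E2F matches at 233 and 52 bases, 3 CCAAT boxes and a CHR match at 241 bases, and the E2F match at 52 bases shares a letter with the CCAAT box at 45. Promoters were at hand for 24 of the 30 measured genes. CHR matches stood in 9 of them (37.5%, against 17.4% of 33469 rat promoters of the same length), CCAAT boxes in 16 (66.7% against 34.0%), E2F matches in 6 (25.0% against 1.7%), and CHR with CCAAT in 6 (25.0% against 6.3%). A match is a run of letters and was not tested as a binding site.

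Whether the MIA rats changed otherwise than the naive rats was tested as the difference of their changes from day 0. None of the 30 genes passed at days 2, 14, 21 or 28, nor over the 4 days together, and 0% of all probe sets were called in any of these 5 tests. At day 0, before the injection, the difference between treatments lay between −0.25 for Ccnb1 and 0.29 for Foxm1, and 0 of the 30 genes and 0% of all probe sets were called. At an unadjusted p under 0.05 the counts among the 30 genes were 1, 1, 2 and 1 at the 4 days and 2 for the 4 days together. As shares these were 3.33%, 3.33%, 6.67%, 3.33% and 6.67%, against 5.61%, 4.22%, 3.60%, 4.06% and 4.67% of all probe sets. The single comparisons were Brca1 at day 2 (0.36 ± 0.17), Mcm7 at day 14 (−0.55 ± 0.25), Brca1 and Ccna2 at day 21 (−0.40 ± 0.17 and −0.47 ± 0.21) and Kif20a at day 28 (−0.51 ± 0.25). The difference at day 28 was −0.06 for Cdc20, with a 95% interval from −1.12 to 1.01, and 0.21 for Ccnb2, from −0.32 to 0.73. It was 0.00 for Melk, from −0.34 to 0.34. For Pcna it was −0.10, from −0.62 to 0.41, and for Mcm7 −0.31, from −0.81 to 0.20. These intervals are wider than the changes themselves, and a p that misses the threshold does not show that the treatments changed alike.

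Brca1, which repairs DNA breaks by recombination, had the smallest p of the panel over the 4 days together. The study names it among its MIA-altered genes from these same samples, so that its values are no independent evidence. It describes the group of Brca1 as raised at day 2 and decreased at days 21 to 28, and elsewhere as back at control level by the end. Here the MIA mean of Brca1 was 2.69 at day 0, 2.65 at day 21 and 2.71 at day 28. The MIA levels of Brca1 ran from 2.41 to 2.86 with a median of 2.70 at day 0 and from 2.76 to 3.18 with a median of 2.99 at day 2. In naive rats the levels were 2.93, 2.78, 2.65 and 2.83 at day 0 and 2.94, 2.59, 2.61 and 2.79 at day 2. The MIA ranges overlapped, though all 6 MIA rats were higher at day 2, and the change was 0.29 ± 0.11 (SE, limma adjusted p = 0.798).

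At day 21 it was the naive rats that were high in Brca1, with 3.33, 3.54, 3.06 and 2.74, against 2.83, 2.84, 2.66, 2.40 and 2.54 in MIA replicates 1, 2, 3, 5 and 6. Over the 4 days together limma's F test gave an unadjusted p of 0.00217 and an adjusted p of 0.885, with adjusted p between 0.383 and 1 under the alternatives. Its partner Bard1 had a change of 0.12 at MIA day 2 and did not pass at any day. The change of Brca1 at day 28 was 0.02 ± 0.11 in MIA and −0.03 ± 0.13 in naive rats.

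**Figure D3:**
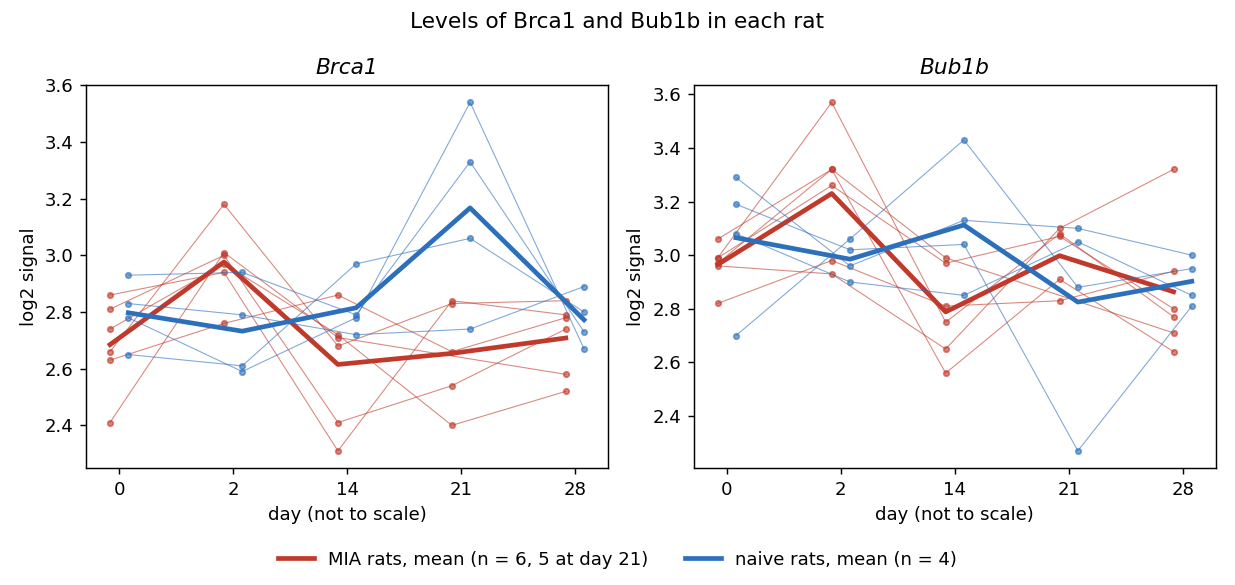
Log2 signal (y axis) of Brca1 and Bub1b in each rat by day (x axis, not to scale), thin lines for single rats and thick lines for the mean of 6 MIA rats (5 at day 21) and of 4 naive rats. The MIA mean of Brca1 is 2.98 at day 2 against 2.73 in naive rats, and at day 21 the order is turned, 2.65 against 3.16.

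Bub1b, the checkpoint kinase BubR1, came second in that test, with an unadjusted p of 0.0441 and an adjusted p of 1 (limma). Its MIA levels ran from 2.82 to 3.06 with a median of 2.98 at day 0 and from 2.93 to 3.57 with a median of 3.29 at day 2. The naive levels were 2.70, 3.08, 3.29 and 3.19, and then 3.06, 2.90, 2.96 and 3.02. Mcm7, Foxm1 and Kif20a followed with unadjusted p of 0.12, 0.211 and 0.245.

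At day 2 no gene of the panel passed in MIA, naive or all rats, and 0% of all probe sets were called in each. In MIA rats 3 genes had an unadjusted p under 0.05, 10% against 5.65% of all probe sets, and these were Brca1, Plk1 and Bub1b. Plk1 ran from 2.28 to 2.84 with a median of 2.63 at day 0 and from 2.73 to 3.21 with a median of 2.97 at day 2, and the ranges overlapped. It had a change of 0.35 ± 0.13 (SE, limma adjusted p = 0.807), higher in 6 of 6 MIA rats. Kif11, a motor of the spindle, had 0.32 ± 0.17 and Kif20a, a motor of late mitosis, 0.28 ± 0.16, higher in 5 and 4 of 6 rats. The median of the 30 genes was 0.09 against 0.01 over all probe sets. In all rats the smallest p values belonged to Kif20a at 0.28 ± 0.12, Plk1 at 0.23 ± 0.11, Kif11 at 0.19 ± 0.14, Brca1 at 0.11 ± 0.08 and Ccnb2 at −0.15 ± 0.13. None passed, and the value of Kif20a was 0.15 without naive replicate 1 and that of Ccnb2 −0.06 as the mean of its probe sets.

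The genes also varied together among rats. With the mean of each treatment and day removed, the mean Pearson r over the 435 pairs of the 30 genes was 0.214 over 49 arrays, and 83.2% of the pairs lay above 0. With genes outside the panel the mean r was of like size for some lists, 0.218 with red cell precursor genes (78.5% of pairs above 0) and 0.196 with neutrophil genes (82% above 0). These arrays share rats and a normalization, so that r is a description. The highest pairs were Bub1 with Tpx2 at 0.898, Tyms with Tpx2 at 0.841, Rrm2 with Tyms at 0.834 and Tyms with Bub1 at 0.816. The 3 nucleotide genes had a mean r of 0.782 with each other and 0.60 with the 4 spindle genes, but 0.0406 with the licensing genes. The 6 licensing genes had 0.331 among themselves and −0.0259 with the cyclin group. Foxm1, the transcription factor of mitotic genes, ran against the licensing genes, with r of −0.383 with Mcm6 and −0.336 with Mcm3.

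**Figure D4:**
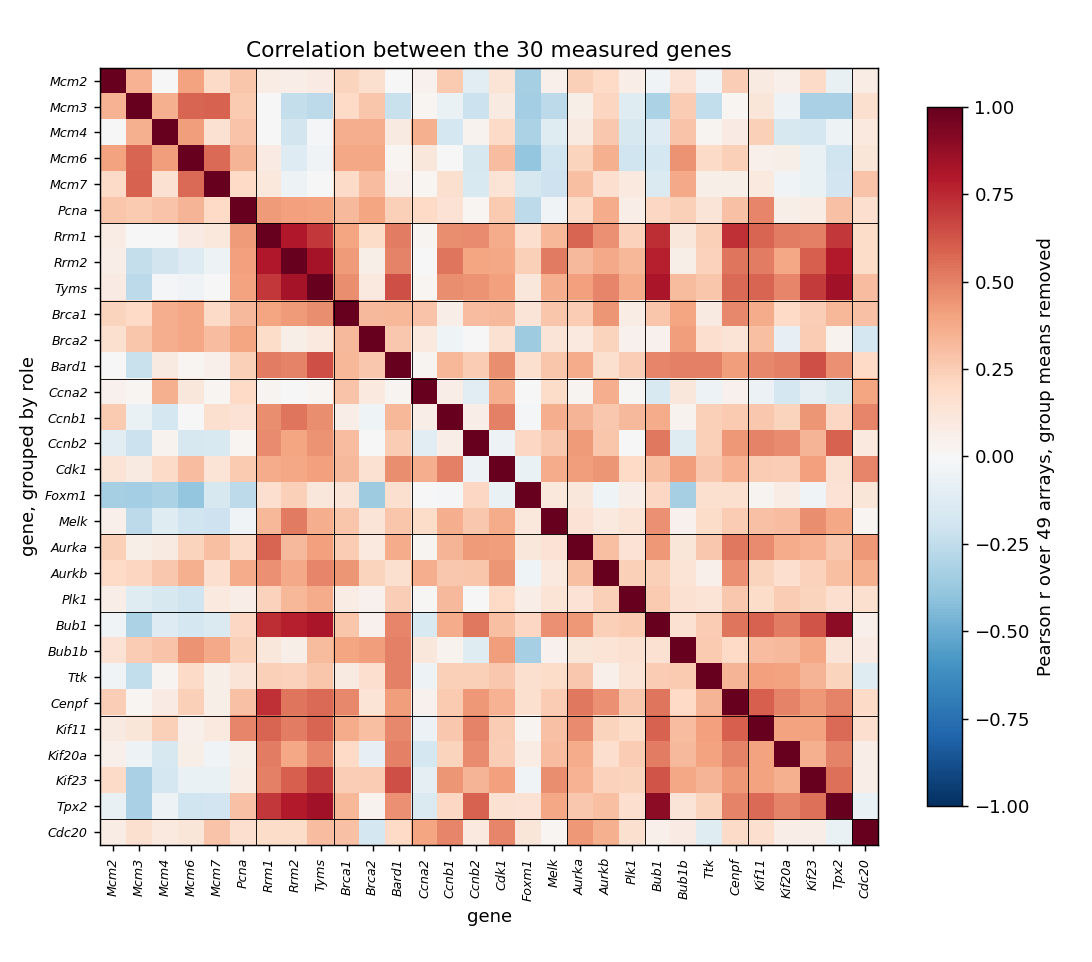
Pearson r (colour scale) between each pair of the 30 genes over 49 arrays after the mean of each treatment and day was removed, with genes ordered by role on both axes. The block of Rrm1, Rrm2 and Tyms is dark within itself and with Bub1 and Tpx2 (Bub1 with Tpx2 0.898), whereas the row of Foxm1 is blue against the MCM genes (−0.383 with Mcm6).

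Differences between rats lasted over the days for some of these genes. Tpx2, which anchors Aurora A on the spindle, split the rats into a high and a low set that held from day 0 to day 28. MIA replicates 1, 2 and 3 ran from 6.37 to 7.49 over all days and MIA replicates 4, 5 and 6 from 4.23 to 5.28. Naive replicate 1 ran from 6.91 to 7.32 and replicate 3 from 5.80 to 6.69, while replicate 2 ran from 4.67 to 5.18 and replicate 4 from 4.13 to 5.34. No value of any rat lay between 5.34 and 5.80. Bub1 differed between the same MIA rats at day 0, with 3.45, 3.23 and 3.31 in replicates 1 to 3 and 2.31, 2.25 and 2.18 in replicates 4 to 6. After the rat means were removed as well, the mean r of the panel was 0.173, Tyms with Tpx2 stood at 0.605, and Bub1 with Tpx2 was no longer among the 10 highest pairs. The mean r of the nucleotide genes was then 0.437 with each other, 0.23 with the spindle genes and 0.22 with the licensing genes. The r of 0.898 between Bub1 and Tpx2, both on chromosome 3, thus includes the difference between rats, and the source of that difference, including whether the probes bind alike in every rat, was not tested. The day 28 change of Tpx2 was −0.47 ± 0.52 in all rats, and its level was lower in 9 of 10 rats. The standard error includes the spread between rats. Within rats the change at day 28 ran from −0.86 in naive replicate 3 to 0.27 in MIA replicate 4.

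Blood cell markers changed over the same days. The lists were drawn up for cells that whole blood holds, with earlier results of these data known. Defining genes of blood were present, with mean log2 signals of 11.6 for the globin gene Hba-a1, 8.18 for S100a9 of neutrophils, 8.26 for Ppbp of platelets and 6.73 for Cd3e of T cells, while Alas2 and Cd79b are not analysed here. At day 28 in all rats 17 of 27 measured genes of red cell precursors fell and 0 rose, with a median of −0.51, among them Slc25a37, the iron importer of mitochondria, at −0.91. In contrast 7 of 17 T cell genes, 12 of 15 genes of NK and cytotoxic cells, 7 of 10 neutrophil genes and 4 of 8 monocyte genes rose, with 0 lower in each list. Of 11 plasma cell genes Jchain rose, at 0.78, and of 10 neutrophil precursor genes 2 rose. The 9 B cell genes and the 7 platelet genes held no call. Over all probe sets 7.37% were called higher and 4.58% lower in the same comparison, and 1 of 11 plasma cell genes is near that share. The mean level over the red cell precursor genes ran from 7.94 to 8.54 in MIA rats at day 0 and from 7.37 to 7.99 at day 28, and in naive rats from 7.87 to 8.44 and from 7.34 to 8.04. The same level over the T cell genes ran from 5.80 to 6.57 and from 6.54 to 6.92 in MIA rats, and from 5.87 to 6.22 and from 6.35 to 6.51 in naive rats.

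Beside these lists the genes differed in how they varied between arrays. With the red cell precursor genes the mean r was 0.581 for Tyms, 0.524 for Tpx2, 0.497 for Bub1 and 0.31 for Ccnb2, and with the T cell genes these had −0.274, −0.411, −0.419 and −0.31. Mcm3, Mcm6 and Mcm7 had −0.168, −0.0436 and −0.0808 with the first list and 0.44, 0.457 and 0.442 with the second. Cdc20 had 0.163 and 0.0181. With the neutrophil genes, of which 7 of 10 rose, Tyms had 0.514 and Tpx2 0.355. Once rat means were removed as well, the mean r of the panel was 0.142 with the T cell genes and 0.095 with the red cell precursor genes, against −0.0297 and 0.218 before. Tyms, Tpx2, Bub1 and Ccnb2 then had 0.326, 0.134, −0.128 and 0.0245 with the T cell genes, and 0.232, 0.144, 0.133 and 0.0206 with the red cell precursor genes. The part of these cells in the changes of the panel was not tested.

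**Figure D5:**
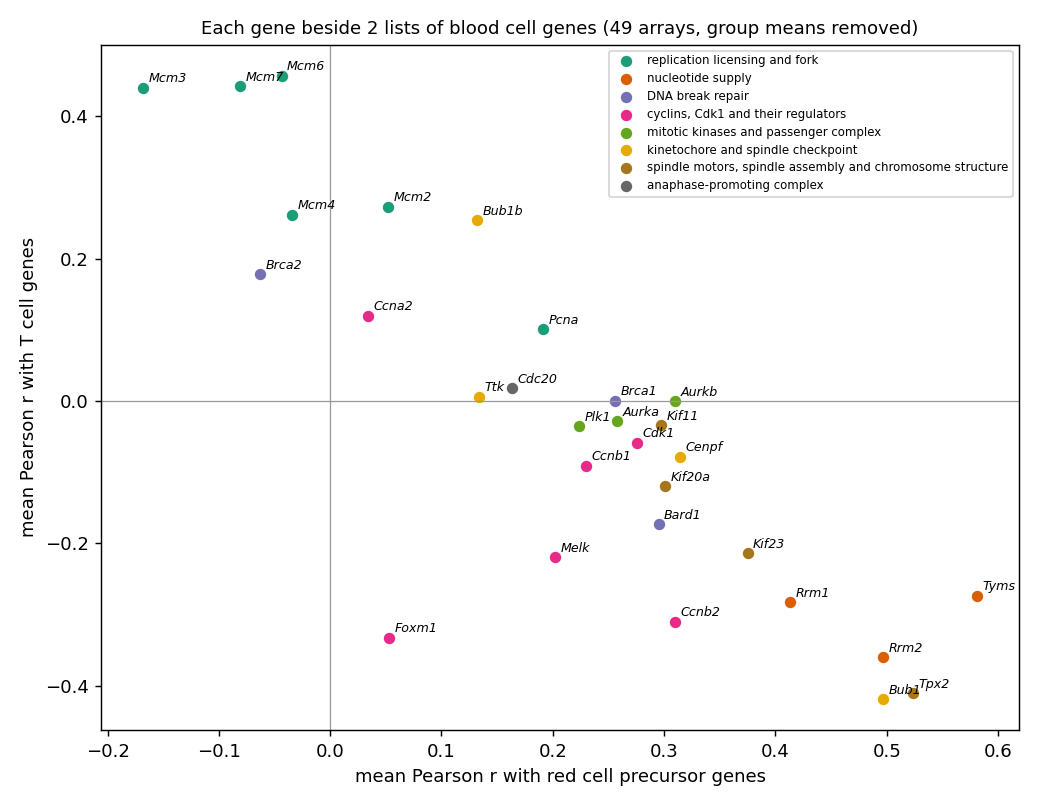
Mean Pearson r of each of the 30 genes with the red cell precursor genes (x axis) and with the T cell genes (y axis) over 49 arrays, with the mean of each treatment and day removed and colours for roles. Mcm3, Mcm6 and Mcm7 lie at the upper left, with 0.44 to 0.457 on the y axis, and Tyms, Tpx2 and Bub1 at the lower right, with 0.497 to 0.581 on the x axis.

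Other genes of the same pathways were counted from lists that leave out the panel. Of 38 measured mitosis genes 3 fell and 1 rose at day 28 in all rats, with a median of −0.12. Spag5, a spindle protein, fell by 0.97 (adjusted p = 0.00369), Nek2, a centrosome kinase, by 0.87 (adjusted p = 0.037) and Dlgap5, a spindle protein, by 0.69 (adjusted p = 0.00563), while the condensin subunit Smc4 rose by 0.39 (adjusted p = 0.0429). Of 28 further S phase genes 0 passed, and the smallest p belonged to Rpa2, a subunit of the single-strand binding protein, at 0.31 (adjusted p = 0.093). Of 40 further repair genes 2 rose and 2 fell, with Ercc3 at 0.54 and Lig3 at 0.36, and Ddb1 at −0.71 and Rad54l at −0.27. Of 17 genes of cell cycle arrest 5 rose and 0 fell, with a median of 0.19. These were Btg1 at 0.62, Ccng2 at 0.54, Sesn3 at 0.44, Cdkn1b, the Cdk inhibitor p27, at 0.38 and Rbl2 at 0.27. The counts stand beside 7.37% higher and 4.58% lower among all probe sets.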

How the data were processed

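Blood RNA of 10 rats was measured on 50 arrays, 1 per sample. The authors processed the scans with GeneChip Operating Software, subtracted background, normalized by quantiles and deposited log2 signals per probe set. The submitters' processing notes name oligo 1.36.1, and the summary over probes and the build are not given in the sources used here. Of 36685 probe sets, 14824 carry 1 gene symbol, 829 several, and 21032 are unnamed here. Groups follow the labels, although the methods state an equal number per group.

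Linear models with 1 mean for each of 10 groups of treatment and day were fitted to 49 arrays with limma 3.58.1 in R 4.3.3 (lmFit and eBayes, moderated t and F, two-sided for t), and p-values were adjusted by Benjamini-Hochberg over all probe sets within each of 20 comparisons and called under 0.05. The fit was checked on simulated data with known changes. Those arrays were drawn independently and held no difference between rats, so the check does not cover repeated arrays of a rat. The rat was not a block in the fit, because the ANOVA of the study names time and treatment. The labels name the animal of each sample. Arrays of the same rat correlated at a mean r of 0.0821 after group means were removed, against −0.0294 between rats, and each rat was positive, from 0.0473 to 0.134. Alternatives were the rat as a replicate block (consensus correlation 0.0319), all 50 arrays, dim probe sets left out, arrays shifted to the same median, quantile normalization again, a trended and robust variance prior, array weights, leaving out each rat, and the mean of a gene's probe sets. The genes and the lists were chosen with earlier results of these data known. Brca1 and sets of the 5 genes with the smallest p were named by rule. These sets came from day 2 and day 28 in MIA and all rats, day 28 in naive rats, and the 4 differences together. Levels were given for some of these genes and not for others, such as Kif11. Bub1, Tpx2, Mcm2 to Mcm6 and the pairs named for their correlation were described after their values were seen. Promoters came from RefSeq (GRCr8), to which all 30 genes matched by symbol and gene number. Plots used matplotlib 3.10.9 under Python 3.11.15.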

Additional observations from a re-analysis of the deposited data

Results flagged for a closer look

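In 6 of 130 groups of a gene, treatment and day, 1 rat lay far from the others of its group by Dixon's criterion, which chance alone meets in about 1 in 20 groups. Mcm7 at MIA day 0 was low in replicate 2, at 3.80 against 4.24 to 4.44 in the other rats. Cdc20 at MIA day 21 was low in replicate 5, at 3.25 against 3.84 to 4.06. Ccnb2 at naive day 21 was low in replicate 2, at 4.65 against 4.91 to 4.95. Foxm1 at naive day 0 was high in replicate 4, at 2.77 against 2.39 to 2.45. Plk1 at naive day 28 was low in replicate 3, at 2.14 against 2.67 to 2.78. Kif20a at MIA day 2 was low in replicate 6, at 2.06 against 2.55 to 2.73. No gene examined moved in opposite directions in every MIA and every naive rat.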

How the results depend on the processing

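Of 624 values of named genes recomputed under the alternatives, 588 kept their direction and their side of the threshold, 33 lost their call, 3 gained one and 0 reversed. With the rat as a replicate block the same genes were called, 1 at MIA day 28, 1 at day 21 in all rats and 5 at day 28 in all rats, and the block changed no other call of the panel. That block used 1 correlation, 0.0319, for all probe sets, so it was close to the fit without it. It cannot show what pairing would do for genes that differ strongly between rats, such as Tpx2. With all 50 arrays the counts at MIA day 28 and at day 28 in all rats were 0 and 1, and over all probe sets 4 and 591 in place of 1564 and 4386. At MIA day 28 the trended and robust prior gave 0 genes and array weights 3, over all probe sets 1513 and 4055. At day 21 in all rats a shift to the same median gave 2 genes and array weights 2, and over all probe sets array weights gave 3369 and the 50 arrays 405 in place of 1845. Leaving out 1 rat gave 0 to 1 genes at MIA day 28, with 303 to 1987 probe sets in all, 0 to 1 at day 21 in all rats and 2 to 5 at day 28 in all rats, with 3 without naive replicate 2 and 2 without naive replicate 4. Over all probe sets at MIA day 28, a shift to the same median gave 2499 calls and leaving out the arrays of low mean 2453. In comparisons where no gene of the panel passed, the counts over all probe sets moved too. With all 50 arrays they were 142 in place of 244 at MIA day 21, 0 in place of 122 at naive day 21, 2 in place of 750 at naive day 28 and 1 in place of 343 between days 14 and 28. Array weights gave 769, 134, 1174 and 565 there, and leaving out 1 rat 24 to 339, 2 to 126, 45 to 783 and 31 to 517. Between days 2 and 14 in all rats the block gave 25 in place of 15, and a shift to the same median 150. The unadjusted p of Brca1 over the 4 days lay between 7.45e-05 and 0.0447. The mean r of the panel was 0.173 with rat means removed. Leaving out the 2 arrays of low mean signal was chosen after seeing the data, and it gave 6 genes at day 28 in all rats. The causes were not tested. The number of rats, 6 and 4, limits what could be called, and Melk and Ttk are dim.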
